A study of Mus musculus with 12 samples.

Results

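The Mrgpr genes encode a family of G protein-coupled receptors, and the 7 described here, Mrgprd, Mrgpra3, Mrgprb4, Mrgprb5, Mrgpre, Mrgprf and Mrgprx1, were chosen by symbol from the 22609 genes in the count tables. Each was measured by bulk RNA sequencing in 12 libraries of tongue-innervating neurons, sorted from trigeminal ganglia (TG) of adult Balb/c athymic nude mice, a strain that lacks T cells. The neurons were marked with WGA-488, a dye that nerve endings take up and carry back to the cell body, which was injected in the tongue on day 13, at 0.5% by the labels and at another strength by the methods of the study, and the ganglia were taken on day 15. There were 4 groups of 3 libraries, MN and MT from males without and with a tumor, and FN and FT from females likewise. Tumor mice had received 350000 HSC3 cells, which come from a human carcinoma of the mouth, in the tongue. A normal library pooled 4 TGs from 2 mice and a tumor library pooled 4 ipsilateral TGs from 4 mice, so tumor and pooling cannot be told apart. According to the labels the normal mice received no cells, whereas the methods of the study state that they received a normal oral keratinocyte line, and which of these holds was not settled.

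Mrgpr receptors are known mainly from small-diameter sensory neurons of the skin, where they divide pain and itch neurons into classes. Mrgprd, the receptor for beta-alanine, marks the non-peptidergic nociceptors that end in the epidermis. Mrgpra3, a receptor for chloroquine, marks itch neurons and often occurs with Mrgprx1, also called MrgprC11, which responds to a peptide cut from proenkephalin. Mrgprb4 and Mrgprb5 occur in C fibers of hairy skin linked to stroking, while Mrgpre and Mrgprf are orphan receptors with no settled ligand. In bulk libraries fewer cells of a type and less RNA per cell cannot be told apart, which holds for every level below.

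All 7 genes lie on chromosome 7 of the mm9 mouse genome. Mrgpra3 (54844320 to 54856742), Mrgprx1 (55276341 to 55282971), Mrgprb5 (55423353 to 55424384) and Mrgprb4 (55453583 to 55454548) lie on the minus strand of a single cluster, and Mrgpre (150964270 to 150970405) lies on the minus strand far from it. Mrgprf (152486733 to 152495462) and Mrgprd (152500740 to 152509964) lie near each other on the plus strand. Because genes of the cluster arose from one another, their reads could be mistaken, and 100 coding bases of the Mrgprb4 and Mrgprb5 pair and of Mrgpra3 with its closest relative are shown for this reason, with the bases that differ within each pair in capitals. The stretches are the first gapless 100 aligned bases of the GENCODE M1 coding sequences.
Mrgprb4, chr7:55454392-55454491, minus strand: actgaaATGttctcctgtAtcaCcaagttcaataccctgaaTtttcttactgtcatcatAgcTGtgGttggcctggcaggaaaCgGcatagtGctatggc
Mrgprb5, chr7:55424196-55424295, minus strand: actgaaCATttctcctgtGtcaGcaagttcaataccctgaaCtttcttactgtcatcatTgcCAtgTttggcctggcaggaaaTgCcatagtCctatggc
Mrgpra3, chr7:54845366-54845465, minus strand: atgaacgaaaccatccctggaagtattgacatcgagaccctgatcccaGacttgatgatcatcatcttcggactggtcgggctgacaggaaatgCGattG
Mrgpra4, chr7:55237098-55237197, minus strand: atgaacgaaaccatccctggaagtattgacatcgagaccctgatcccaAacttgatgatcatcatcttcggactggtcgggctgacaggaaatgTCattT

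Mrgprb4 and Mrgprb5 differed at 13 of these 100 bases, and the longest run they share anywhere in their coding sequences was 57 bases. Mrgpra3 and Mrgpra4, which is not among the 7, differed at 4 of the 100 bases and shared a run of 76. Over the whole coding sequence Mrgprb4 and Mrgprb5 were 84.6% identical and Mrgpra3 and Mrgpra4 were 88.4% identical. A read here has 50 bases, so every stretch of 50 exon bases was looked for elsewhere in the genome without a mismatch. No stretch of Mrgprd or Mrgprf occurred elsewhere. The share was 0.814% for Mrgprb5, 1.85% for Mrgprb4, 3.03% for Mrgpre, 7.27% for Mrgprx1 and 11.2% for Mrgpra3. Reads of Mrgprb4 and Mrgprb5 could therefore be placed over nearly the whole of both genes, whereas reads from a part of Mrgpra3 could not be told from its relatives. An exon of Mrgpre also overlaps a gene annotated on the opposite strand, and the strand setting of the counting is not stated.

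Each library had between 4592891 and 8922011 reads on genes. FN replicate 2, FT replicate 2 and FT replicate 3 stood apart from the other 9 libraries, with 56.0%, 68.4% and 52.6% of all reads mapped to several places against 43.0% to 45.5%. The comparisons below are therefore also given without these 3, where FT is a single library. Summed markers of sensory neurons lay between 21783 and 27155 CPM (counts scaled to the same total of reads on genes) in the 9 libraries and were at 30298, 18896 and 30679 CPM in the 3, so these markers were abundant in all 12. Markers of other cells were present too. Summed satellite glia markers were at 4171 to 8798 CPM in the 9 libraries and at 17425, 11900 and 18856 CPM in these 3. Macrophage markers reached 11.3 to 189 CPM in the male libraries and 125 to 325 CPM in the female libraries. Of the 12 tested, 11 were higher in FN than in MN at an unadjusted p under 0.05 (5.57% of all genes). The part of these cells in the differences between the sexes below was not tested.

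Mrgprd was by far the most abundant member in these neurons. Per exon length its level in MN was 228 ± 25.4 RPKM (CPM per kilobase of exon, SD, n = 3), and over the 12 libraries it lay at the percentile of 98.8 among all genes. Mrgpra3 followed in MN at 39.4 ± 8.20 RPKM and Mrgpre at 20.2 ± 2.46 RPKM. Mrgprb4 had 5.83 ± 2.57 RPKM, Mrgprx1 4.78 ± 2.59, Mrgprb5 4.25 ± 0.263 and Mrgprf 1.83 ± 0.393. In MN the libraries of Mrgprd, Mrgpra3, Mrgpre and Mrgprb4 did not overlap from each to the next in this order, and those of Mrgprb4, Mrgprx1 and Mrgprb5 did. Over the 9 libraries Mrgpra3, at 15.7 to 48.5 RPKM, and Mrgpre, at 12.8 to 22.4 RPKM, overlapped, and Mrgprd stood clear of both at 141 to 243 RPKM.

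**Figure D1:**
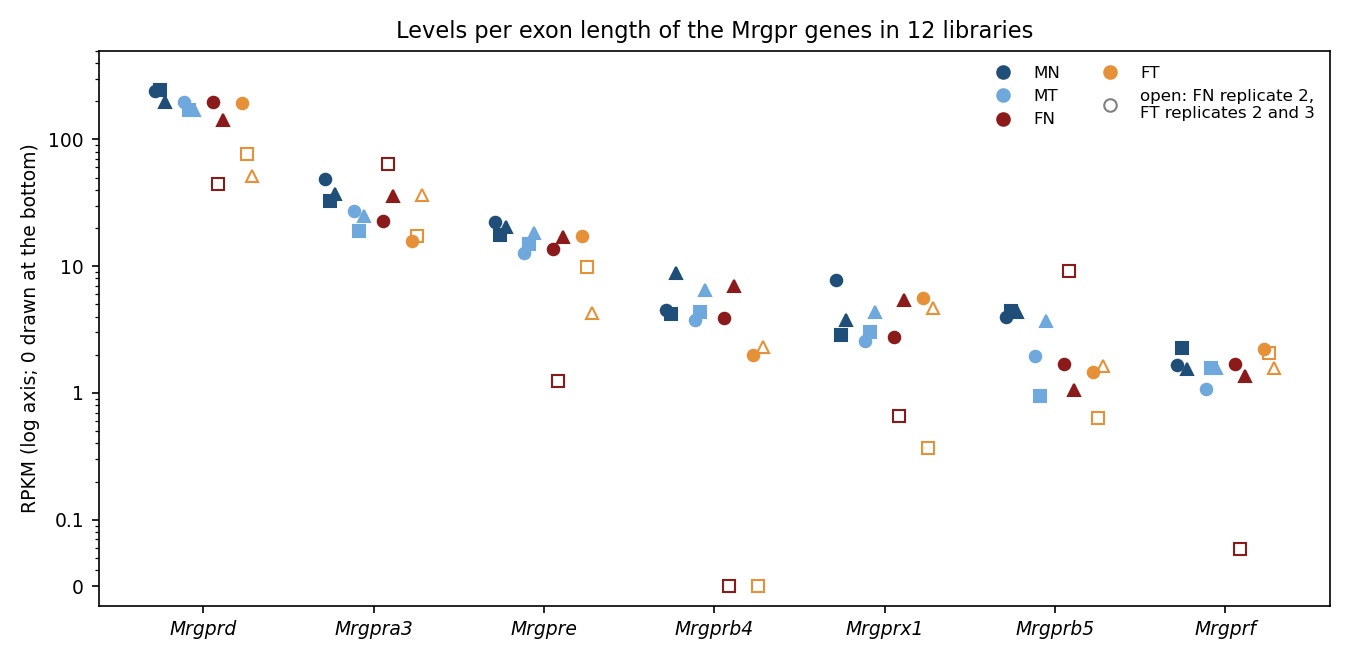
Level of each Mrgpr gene in RPKM on an axis that is logarithmic except near 0, 1 symbol per library (circle, square and triangle for replicates 1, 2 and 3), colored by group, with values of 0 drawn at the bottom. Mrgprd led in 11 of 12 libraries, and the 3 libraries that stood apart (open symbols) lay below the others for Mrgprd and Mrgpre.

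Mrgprd made up 67.6% to 81.3% of the summed RPKM of the 7 genes in the 9 libraries. The share was 37.2%, 72.0% and 50.4% in the 3 that stood apart, FN replicate 2 and FT replicates 2 and 3. In FN replicate 2 Mrgpra3 took the lead with 53.6% of the sum. The ratio of Mrgprd to Mrgpra3, both in RPKM, was 5.00, 7.45 and 5.36 in MN replicates 1 to 3 and 7.26, 9.08 and 6.83 in MT. It was 8.67, 0.695 and 3.93 in FN and 12.3, 4.50 and 1.42 in FT, so the lowest ratios were those of FN replicate 2 and FT replicate 3.

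Mrgprd, the receptor of non-peptidergic nociceptors, was at 756, 758 and 619.8 CPM in the MN replicates and at 613, 534 and 528 CPM in MT. Every MT library was thus below every MN library, although MT replicate 1 and MN replicate 3 nearly met. In FN it was at 617, 139 and 441 CPM and in FT at 600.1, 240.4 and 161 CPM. The low female values were those of the 3 libraries that stood apart, at 22.9%, 39.6% and 26.5% of the mean of the 9. The fold of MT over MN was 0.796 (log2 fold change -0.33 ± 0.47 SE), with an adjusted p = 1 by the edgeR quasi-likelihood test. Without the 3 libraries, all female, the same male libraries were compared, and the log2 fold change was -0.33 ± 0.14. FN against MN gave -0.82 ± 0.47 with all libraries and -0.48 ± 0.15 without the 3, the latter with an adjusted p = 0.179 by edgeR. FT against FN changed direction with these libraries, from -0.16 ± 0.47 to 0.19 ± 0.20.

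Mrgpre, an orphan receptor, had the next highest read count in MN and MT. It was at 84.4, 66.0 and 77.0 CPM in MN, at 48.2, 56.0 and 69.3 in MT, at 51.5, 4.70 and 63.8 in FN and at 65.6, 37.0 and 16.0 in FT. MT and MN overlapped through MT replicate 3, and every FN library was below every MN library. The log2 fold change of MT over MN was -0.38 ± 0.62 with all libraries and -0.38 ± 0.14 without the 3, and FN over MN gave -0.93 ± 0.62 and -0.44 ± 0.16. The 3 libraries apart were all below the lowest of the 9, at 7.27%, 57.3% and 24.8% of their mean, and the opposite gene on its exon was not counted separately here.

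**Figure D2:**
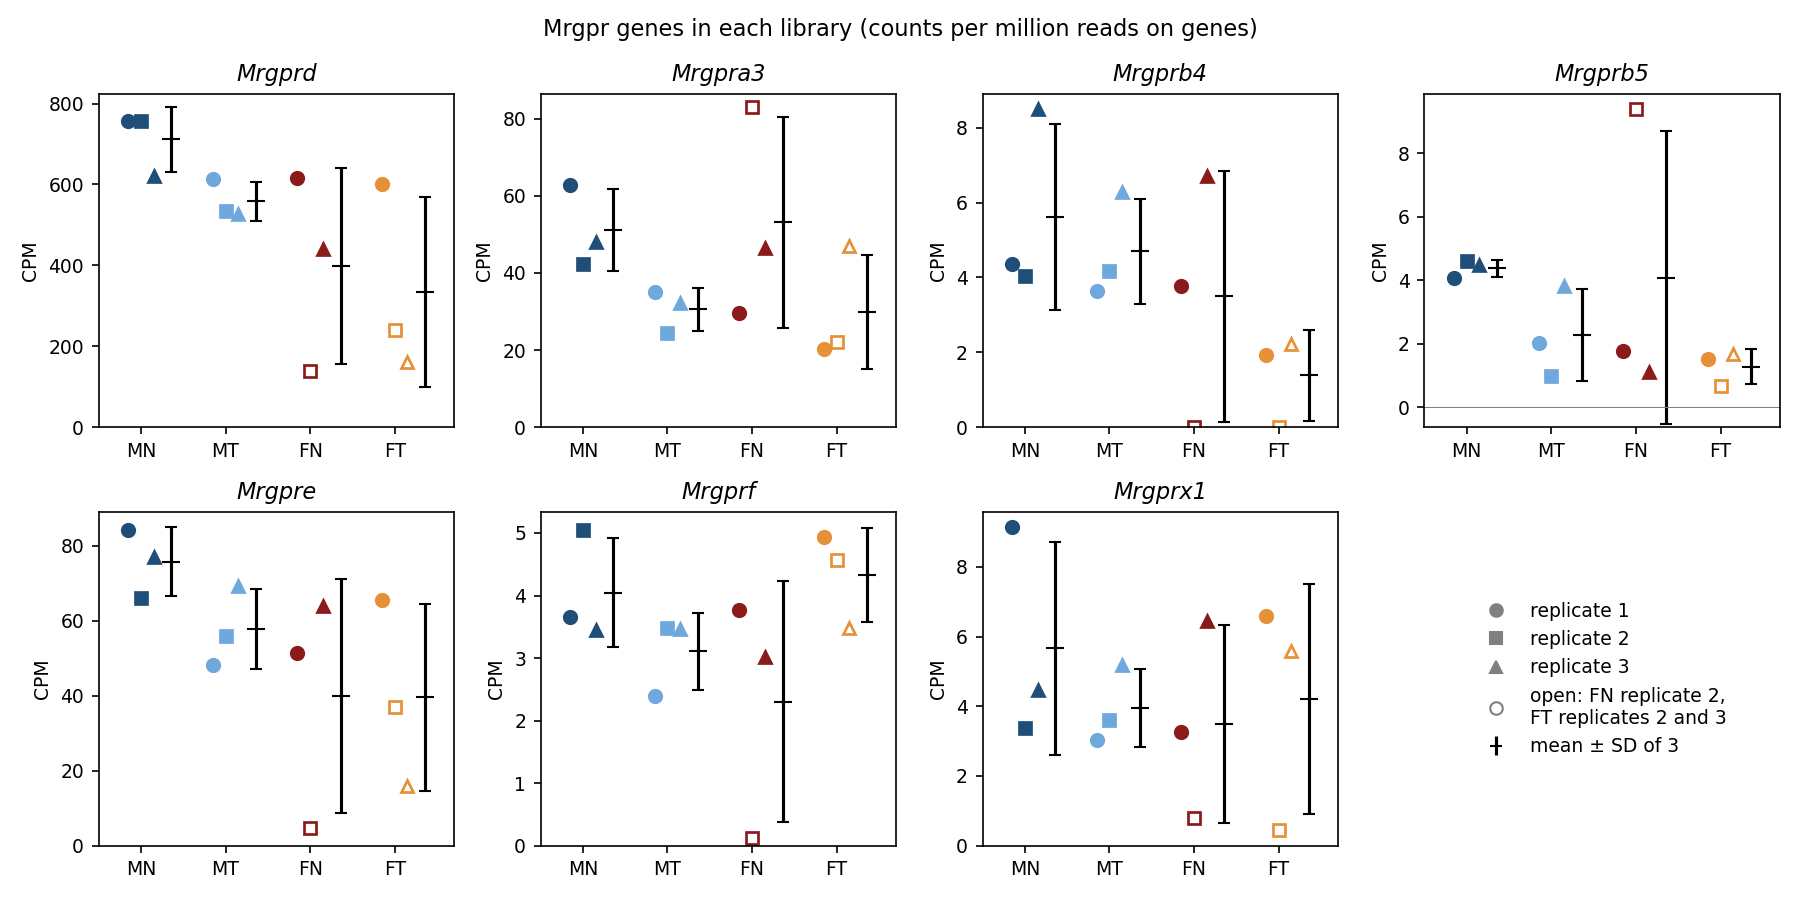
CPM of each Mrgpr gene in each library (circle, square and triangle for replicates 1, 2 and 3, open symbols for FN replicate 2, FT replicates 2 and 3), with the mean and SD of each group of 3 in black. Mrgprd, Mrgpra3 and Mrgprb5 were lower in every MT library than in every MN library, and for Mrgprd and Mrgpre the open symbols lay below every filled one.

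Mrgpra3, the chloroquine receptor of itch neurons, was at 62.8, 42.3 and 48.1 CPM in MN and at 35.1, 24.5 and 32.1 CPM in MT. No MT library reached the lowest MN library. FN held 29.5, 83.1 and 46.6 CPM and FT 20.3, 22.2 and 46.9 CPM, and the highest and the second highest of these 6 values came from FN replicate 2 and FT replicate 3. The log2 fold change of MT over MN was -0.72 ± 0.47 (fold 0.607), with an adjusted p = 1 by edgeR. The difference was -0.72 ± 0.20 without the 3 libraries, with an adjusted p = 0.397 by edgeR. In females FT over FN gave -0.84 ± 0.47 with all libraries and -0.90 ± 0.33 without the 3. It was -0.15 without FN replicate 2 alone and -0.0508 without FN and FT replicates 2, and ranged from -1.28 to -0.0508 over the alternatives, so its size rested on single libraries. Averaged over the sexes the tumor effect was -0.78 ± 0.33, with an adjusted p = 1 by edgeR. FN over MN was 0.24 ± 0.47 with all libraries and -0.47 ± 0.23 without the 3, so its direction rested on them.

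Mrgprx1, the receptor for the proenkephalin peptide, had few reads, from 2 in FT replicate 2 to 65 in MN replicate 1. Its level was 9.14, 3.36 and 4.48 CPM in MN, 3.02, 3.61 and 5.19 in MT, 3.27, 0.783 and 6.44 in FN and 6.58, 0.436 and 5.58 in FT. All pairs of groups overlapped. The log2 fold change was -0.50 ± 0.72 for MT over MN and 0.35 ± 0.73 for FT over FN, neither larger than its error. In the 9 libraries these were -0.49 ± 0.41 and 0.45 ± 0.59.

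Mrgprb5 and Mrgprb4, the closely related receptors of stroking-sensitive C fibers, differed in several libraries and most in FN replicate 2. Mrgprb5 was at 4.08, 4.60 and 4.48 CPM in MN, at 2.01, 0.973 and 3.83 in MT, at 1.76, 9.39 and 1.10 in FN and at 1.51, 0.653 and 1.67 in FT. Mrgprb4 was at 4.36, 4.04 and 8.49 CPM in MN, at 3.65, 4.17 and 6.30 in MT, at 3.77, 0 and 6.71 in FN and at 1.92, 0 and 2.23 in FT. FN replicate 2 thus held 72 reads of Mrgprb5, more than any other library, and none of Mrgprb4. A count of 0 there allows up to 0.391 CPM, and in FT replicate 2, which also had none, up to 0.653 CPM; these limits cover counting error only. In the other 10 libraries Mrgprb4 had 14 to 74 reads. As the sequences above show, reads of the pair can be told apart at most positions.

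For Mrgprb5 every MT library was below every MN library, with a log2 fold change of -0.93 ± 0.77 and, without the 3 libraries, of -0.93 ± 0.43, for which edgeR gave an adjusted p = 0.688. FT over FN gave -1.76 ± 0.81 with an adjusted p = 0.994 by edgeR. Without the 3 libraries it was 0.08 ± 0.75, so the lower FT level rested on FN replicate 2. FN over MN moved the other way, from 0.16 ± 0.75 to -1.65 ± 0.52 without the 3, where edgeR gave an adjusted p = 0.170. Mrgprb4 was lower in FT than in MT in every library, with a log2 fold change of -1.61 ± 0.98 and an adjusted p = 0.470 by edgeR, and of -1.34 ± 0.60 without the 3 libraries. FT over FN of Mrgprb4 was -1.15 ± 0.98 with all libraries and -1.43 ± 0.63 without the 3.

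Mrgprf, the other orphan receptor, had the lowest mean of the 7 per exon length over the 9 libraries. It was at 3.66, 5.04 and 3.44 CPM in MN, at 2.39, 3.47 and 3.46 in MT, at 3.77, 0.130 and 3.01 in FN and at 4.94, 4.57 and 3.49 in FT. Every FT library was above every MT library, by a log2 fold change of 0.64 ± 0.65 with an adjusted p = 0.649 by edgeR, and of 0.61 ± 0.42 without the 3 libraries. FN replicate 2 held 1 read. Mrgprf was the only member with a positive tumor effect averaged over the sexes, 0.36 ± 0.46 (0.0854 ± 0.27 without the 3 libraries), and a negative one in males, -0.37 ± 0.65 (-0.37 ± 0.31), and the difference between the sexes of 1.45 ± 0.93 had an adjusted p = 1.00 by edgeR, with 0.92 ± 0.54 without the 3. Pericyte and smooth muscle markers summed to 115 to 195 CPM in MN, 139.9 to 312 in MT, 159 to 345 in FN and 167 to 323 in FT, and 12 of the 12 tested had a higher mean in FT than in MT. Their part in the levels of Mrgprf was not tested.

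**Figure D3:**
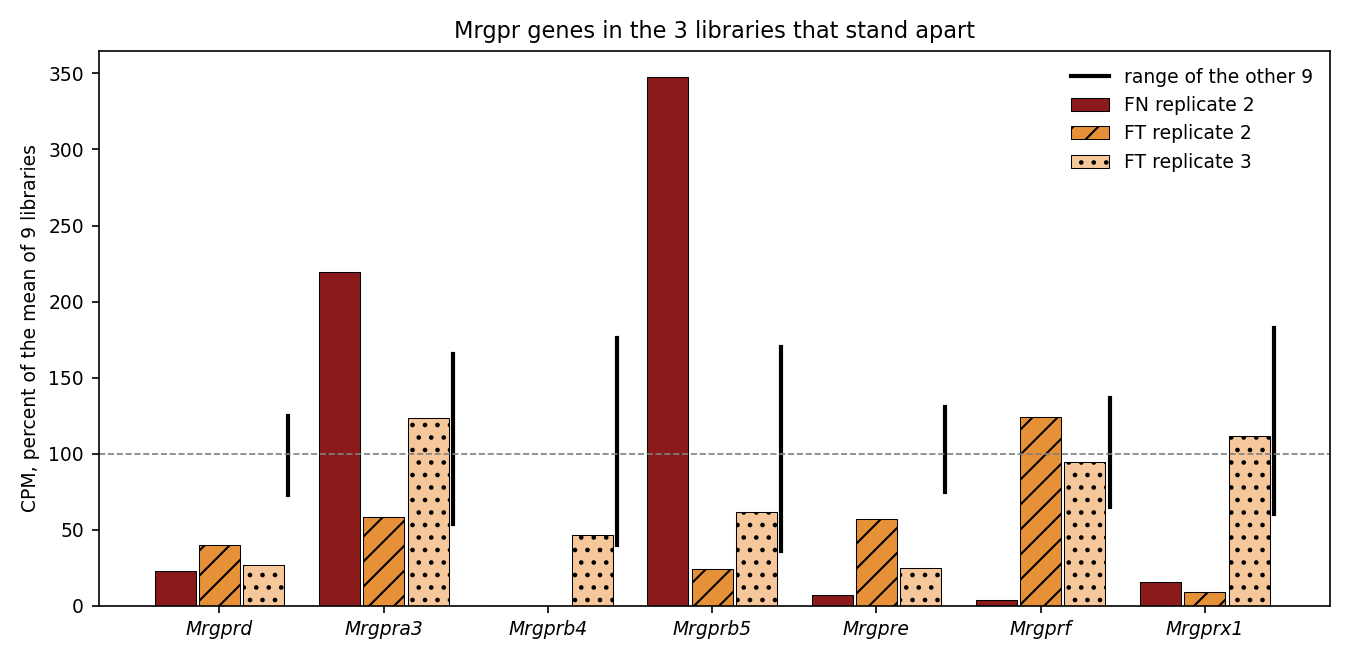
CPM of each Mrgpr gene in FN replicate 2, FT replicate 2 and FT replicate 3 (bars), as a percent of its mean in the other 9 libraries (dashed line at 100), with the range of the 9 as a black line. FN replicate 2 was above that range for Mrgpra3, at 219%, and Mrgprb5, at 348%, and below it for the other 5 genes.

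FN replicate 2 was the library with the most unlike set of Mrgpr genes, while FT replicate 2 and FT replicate 3 each had their own. FT replicate 2 had Mrgpra3 and Mrgprf within the range of the 9 libraries and the other 5 genes below it. FT replicate 3 was below the range for Mrgprd and Mrgpre and within it for the other 5. Across the 9 libraries Mrgprd and Mrgpre varied least, with a coefficient of variation (SD over mean of the CPM, all groups together) of 16.9% and 18.0%, against 55.9% for Mrgprb5. These libraries also had the high satellite glia markers given above, whose part in the Mrgpr levels was not tested.

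In the edgeR fit of 12 libraries the 7 genes gave no call after correction for the genes tested. All 7 passed the filter on low counts, and 13835 genes were tested, or 13360 between the sexes, where X and Y genes were left out. At an adjusted p under 0.05 edgeR called 0 of the 7 members in each of the 6 comparisons, and 0 genes in all, which is 0% in each. At an unadjusted p under 0.05 it called 0 members in MT against MN (0.426% of all genes), 1 in FT against FN (Mrgprb5, 3.82%), 0 in FN against MN (5.57%) and 0 in FT against MT (12.1%). It called 0 for the difference between the sexes in the tumor effect (1.47%) and 2 for the tumor effect averaged over the sexes (Mrgpra3 and Mrgprb5, both lower in tumor mice, 1.12%). The study called a gene differentially expressed by its fold change (over 1.5), its RPKM (over 5) and an unadjusted p (under 0.05), and these criteria were met by Mrgpra3 alone, in the averaged effect (0.499%), and by 0 members in the other 5 comparisons (0.152% in MT against MN, 2.18% in FT against FN, 3.69% in FN against MN, 8.16% in FT against MT and 0.614% for the difference between the sexes).

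With all libraries the direction was the same for all 7 genes in MT against MN. All 7 had a lower level in MT than in MN, with a median log2 fold change of -0.38 against 0.01 over all genes tested. Leaving out MN replicate 3 turned Mrgprb4 to 0.17, and leaving out MN replicate 1 turned Mrgprx1 to 0.02. The libraries of the groups did not overlap for 3 of 7 members in MT against MN (Mrgprd, Mrgpra3 and Mrgprb5, all lower, against 13.1% of all genes). They did not overlap for 0 of 7 in FT against FN (2.49%), for 2 of 7 in FN against MN (Mrgprd and Mrgpre, both lower, 19.8%) and for 2 of 7 in FT against MT (Mrgprb4 lower and Mrgprf higher, 17.6%). In FT against FN 4 were lower and 3 higher with all libraries, and 2 lower and 5 higher without the 3. In FN against MN 5 were lower and 2 higher with all libraries, and 7 lower and 0 higher without the 3 or without FN replicate 2 alone. The comparisons share their control libraries and are not independent of each other.

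**Figure D4:**
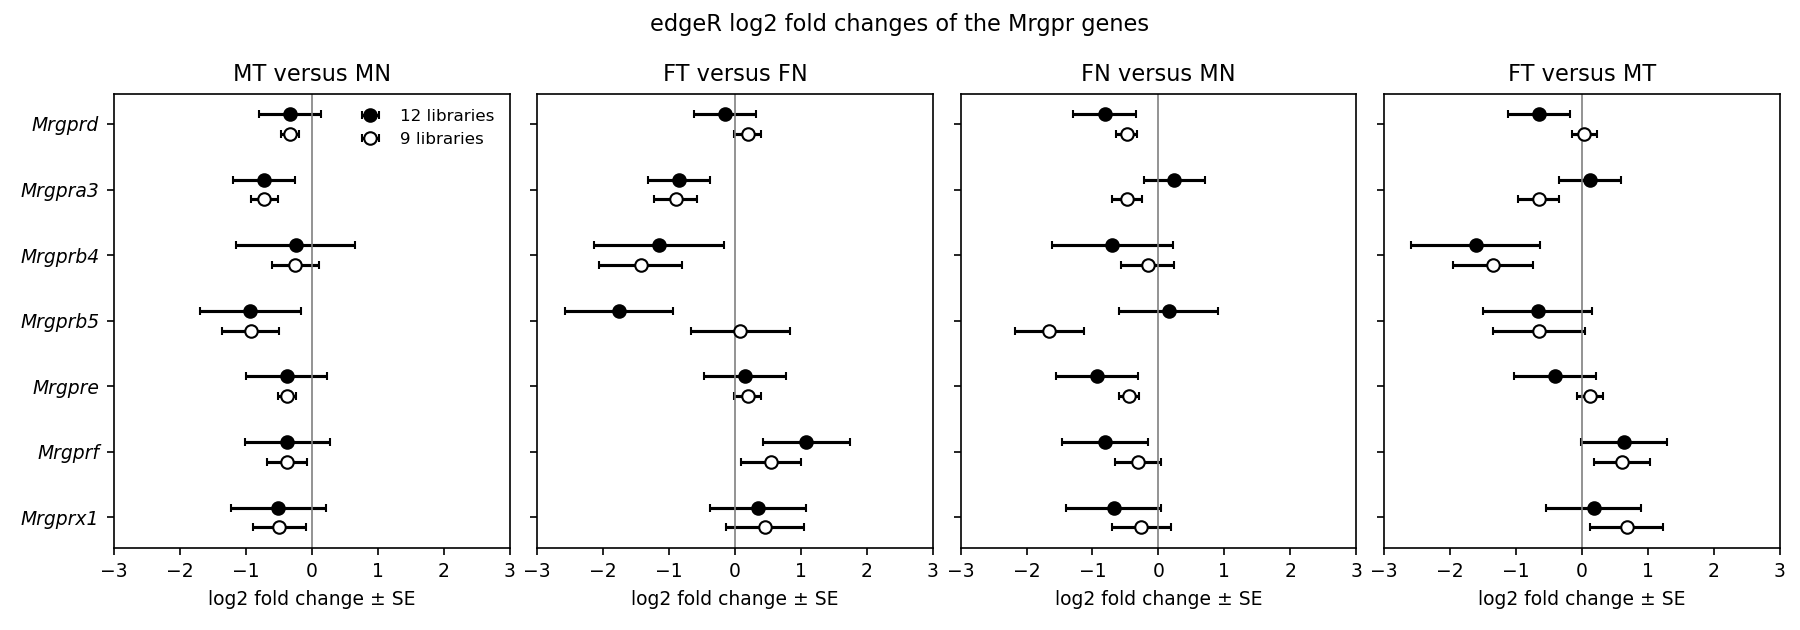
Log2 fold change and SE (bars) of each Mrgpr gene from edgeR in 4 comparisons, with all 12 libraries (filled) and with the 9 libraries that did not stand apart (open). The errors were smaller with 9 libraries, and in FN versus MN the open circle of Mrgprb5 lay at -1.65 while the filled one lay at 0.16.

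Without the 3 libraries the members with an unadjusted p under 0.05 were Mrgprd, Mrgpra3 and Mrgpre in MT against MN, all lower (7.25% of all genes). They were Mrgpra3 and Mrgprb4 in FT against FN, both lower (4.66%), Mrgprd, Mrgprb5 and Mrgpre in FN against MN, all lower (15.2%), and Mrgprb4 in FT against MT, lower (8.27%). Mrgpre passed for the difference between the sexes (0.57 ± 0.25, 5.1% of all genes), and Mrgpra3 and Mrgprb4 passed for the averaged effect (6.22%). FT was then a single library, assumed to vary like the others, and no adjusted p was under 0.05. With only the 6 male libraries in the fit, Mrgprd, Mrgpra3 and Mrgpre passed in MT against MN (6.92% of all genes). Their adjusted p by edgeR was 0.630, 0.344 and 0.646. The fit without the 3 compared the same 6 male libraries and gave nearly equal log2 fold changes. The male fit is therefore no independent support for it.

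The other 14 genes of the family in the tables, 13 Mrgpr genes and the related Mas1, were scarce. Mrgpra2b (mean of 2.38 RPKM over the 12 libraries), Mrgpra9 (1.50 RPKM), Mrgpra2a (1.19 RPKM) and Mrgpra1 (0.923 RPKM) were the highest, and stretches of Mrgpra2a and Mrgpra2b occurred elsewhere in the genome for 87.6% and 85.7% of positions, so both are uncertain. Mrgprb2, the receptor of mast cells, and Mrgpra6, Mrgprb1, Mrgprb3, Mrgprg and Mrgprx2 had no reads in any library, which allows up to 0.336 to 0.653 CPM. Of the mast cell markers, Mcpt4 and Cma1 had reads in no library but FT replicate 1, and Fcer1a in none. The number of these markers without reads was 2 in FT replicate 1 and 5 to 7 in each other library. The others had reads, and the list summed to 28.1 to 159.8 CPM, most of it Kit. Of this group 5 genes were tested, and 0 had an adjusted p under 0.05, with Mrgpra1 lower in FT than in FN and in MT at an unadjusted p under 0.05, and Mrgpra9 lower in FN than in MN. In the 9 libraries Mrgpra9 passed again and Mrgpra1 did not.

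Genes that mark the same neurons as Mrgprd had lower means in MT and in FN, beyond the test only for a few. Of 20 non-peptidergic nociceptor genes tested, 18 had a lower mean in MT than in MN, with a median log2 fold change of -0.23 against 0.01 over all genes, and 17 had a lower mean in FN than in MN, with a median of -0.66 against 0.07. At an unadjusted p under 0.05 none passed in MT against MN and 2, Scn10a and Wnt2b, passed in FN against MN (5.57% of all genes), both lower. None passed after adjustment. The highest in the list per exon length were P2rx3, an ATP-gated channel (170 RPKM), Tmem45b (158 RPKM), Scn10a, a sodium channel of nociceptors (121 RPKM), and Grik1, a kainate receptor (75.7 RPKM). The summed list was at 4101 to 4492 CPM in MN, 3450 to 3691 in MT, and 1684, 1528 and 1821 in FN replicate 2, FT replicate 2 and FT replicate 3. Without the 3 libraries 8 of the 20 were lower in MT than in MN (against 7.25% of all genes called) and 11 of the 20 lower in FN than in MN (15.2%) at an unadjusted p under 0.05, and Scn10a, lower in FN, also passed after adjustment. In that fit of FN against MN, 13 of 14 general sensory neuron markers also had a lower mean, of which 7 passed. So had 12 of 12 myelinated neuron genes, of which 6 passed. The lower means in FN were thus not limited to this class. The lists share genes, with Scn10a in the non-peptidergic and sensory neuron lists and Nefl and Nefm in the sensory neuron and myelinated lists.

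The itch neuron genes, which are known from neurons with Mrgpra3 and Mrgprx1 and from a second class with Sst, were split. Of 15 tested 10 had a lower mean in MT than in MN and the median was -0.42, and only Sst (somatostatin) passed at an unadjusted p under 0.05, lower in MT. The highest per exon length were Jak1 (46.2 RPKM), a kinase of cytokine receptors, Osmr (27.6 RPKM) and Il6st (19.2 RPKM), both cytokine receptor chains, and Sst (16.7 RPKM). Sst was at 13.0 ± 4.64 CPM in MN and 4.06 ± 1.31 in MT. In FT against FN Sst and Htr1f, a serotonin receptor, passed at that level and were higher, with Sst at 37.0 CPM in FT replicate 2 and at 6.58 and 8.37 CPM in the other FT libraries. Over the 9 libraries 2 itch genes were higher and 8 lower in MT than in MN at that level (7.25% of all genes), and 0 passed in FT against FN (4.66%).

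Transcription factors and growth factor receptors that direct the Mrgpr lineages mostly had higher means in MT. Of 12 tested 9 had a higher mean in MT than in MN (median 0.15), and 0 passed an unadjusted p under 0.05 in either tumor comparison. With the 9 libraries Runx1, higher, and Ret, lower, passed in MT against MN (7.25% of all genes) and in FN against MN (15.2%). Among the highest were Pou4f1 (111 RPKM), Isl1 (86.0 RPKM) and Ret (83.4 RPKM), the receptor that comes up as non-peptidergic neurons mature. Runx1, on which the Mrgpr genes depend, was at 41.5 ± 5.15 CPM in MN and 50.8 ± 1.92 in MT. With all libraries Tlx3 passed as higher in FN than in MN at an unadjusted p under 0.05 (5.57% of all genes). Of the signal transduction genes downstream of the receptors 18 were tested and none passed in MT against MN, FT against FN or FN against MN. Only Gnai2, a G protein subunit, passed as higher in FT than in MT (12.1% of all genes). Plcb3 (107 RPKM), Gnai2 (90.7 RPKM), Gnaq (86.2 RPKM) and Gnao1 (83.8 RPKM) were the highest, and the phospholipase Plcb3 was at 695 ± 38.2 CPM in MN and 479 ± 43.9 in MT. Plcb3 passed only without the 3 libraries, as lower in MT (7.25% of all genes) and in FN (15.2%) than in MN at an unadjusted p under 0.05. There it was the only one of 19 to pass in MT against MN.

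The genes whose pattern was most like each member were found by the Pearson r of log2 CPM, over 12 libraries and over the 9 that remain without the 3, among genes with a mean over 5 CPM. These points share library, depth and, over 12, the 3 libraries that stood apart, so r is a description. For Mrgprd the genes were Prkcq (0.99), A3galt2 (0.98) and P2rx3 (0.98) over 12 libraries and A3galt2 (0.98), Ssx2ip (0.97) and Lpar3 (0.96) over 9. Prkcq, P2rx3 and Lpar3 also belong to the non-peptidergic list. For Mrgpre they were Rab3d (0.98) and Pygo2 (0.98) over 12 and Rgs9 (0.99), Bcat2 (0.95) and Pnma2 (0.95) over 9. For Mrgpra3 they were Ddhd2 (0.88), Dnajc3 (0.83) and Rpp40 (0.82) over 12 and Sos1 (0.95), Utp20 (0.93) and Pusl1 (0.93) over 9. A3galt2 was the only gene named for the same member in both sets.

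For the 4 scarce members the same measure gave other genes. Those of Mrgprb4 were Tmbim6 (0.97), Mccc1 (0.97) and 2700007P21Rik (0.97) over 12 and Phtf2 (0.94), Edil3 (0.94) and Tmx4 (0.93) over 9. Those of Mrgprb5 were Csrnp3 (0.84), Lhfpl3 (0.82) and 2610507B11Rik (0.82) over 12 and Dgkg (0.98), Kctd2 (0.94) and Lztfl1 (0.92) over 9. Those of Mrgprf were Ggt5 (0.95), 1700030K09Rik (0.94) and Clip2 (0.94) over 12 and Myh9 (0.90), Bai3 (0.89) and Cldn19 (0.87) over 9. Those of Mrgprx1 were Timeless (0.95) and Rbck1 (0.94) over 12 and Necab2 (0.95), Ints6 (0.93) and Bax (0.93) over 9. Among the members themselves Mrgprd and Mrgpre had an r of 0.88 over 12 libraries and 0.31 over 9, and Mrgprd and Mrgpra3 had -0.44 and 0.34, so their likeness depended on the 3 libraries.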

How the data were processed

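Sorted WGA-positive TG neurons were sequenced in 12 libraries. The authors prepared SMART-seq2 libraries, aligned single reads to mm9 with TopHat2 and counted them with HTSeq, and the deposited values are whole counts per gene symbol without normalization. Annotation, strand setting and most versions are not given in the sources used here. Rows that name no gene (76.3% to 88.8% of reads) were left out. RPKM used the exon lengths of GENCODE M1. Counts were tested with edgeR 4.0.16 (TMM, filterByExpr with minimum count 10 and total 15, quasi-likelihood, Benjamini-Hochberg adjustment, 12 libraries, 4 groups), tested on simulated data. Alternatives used DESeq2 1.42.0, limma 3.58.1, other filters and sample sets. Whether libraries of a group came from separate mice beyond the pooling is not stated, so p-values measure the spread between these libraries. The members, gene lists and libraries left out were chosen with earlier results of these data known. The genes named are the 7 members, the 4 highest genes of each list by RPKM with those of an adjusted p under 0.05, and the 3 genes most like each member, of which a few are not reported here. All other genes were named after their values were seen.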

Additional observations from a re-analysis of the deposited data

How the results depend on the processing

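Of 910 log2 fold changes of the 7 members under 22 alternatives, 853 kept the direction of the fit of 12 libraries and 57 did not. Members with an unadjusted p under 0.05 under 9 libraries are given above. In MT against MN the members called at that level numbered 4 under limma-voom with sample quality weights (1566 of 13835 genes). They numbered 3 with only the 2 groups (922 of 13322) and 1 under 10 libraries, without FN and FT replicates 2 (318 of 13943). They numbered 0 in FT against FN under DESeq2 size factors, quality weights, the replicate block and only the 2 groups (562, 564, 341 and 159 genes in all). The 1 member called there was Mrgprf under limma-voom (192 of 13835 genes) and Mrgprb4 under 10 libraries (2048 of 13943). The call of Mrgprb5 was thus lost under these too. In FN against MN the members called numbered 4 under quality weights (2820 of 13360 genes) and 1 under 10 libraries (819 of 13462). In FT against MT they numbered 1 each under the block (1564 of 13360) and 10 libraries (3025 of 13462). For the averaged effect the number was 1 under limma-voom (81 of 13835 genes), the block (92 of 13835) and 10 libraries (1298 of 13943). It was 0 under quality weights (786 of 13835). The study's criteria gave 1 in the averaged effect in the fit of 12 libraries. The fit of 9 libraries, where FT is a single library, is left aside for these criteria. In MT against MN Mrgpra3 met them under quality weights (with 133 of 13835 genes), only the 2 groups (117 of 13322) and 10 libraries (90 of 13943). In FT against FN Mrgprb4 met them under 10 libraries (1358 of 13943 genes). With 1 library left out they were met by 0 to 2 members in FT against FN, and by 0 to 1 in FN against MN and in FT against MT. After adjustment 1 member passed in any alternative, Mrgprb5 in FN against MN under quality weights (limma adjusted p = 0.0208, range over the alternatives 0.0208 to 1). In that fit 800 of 13360 genes passed after adjustment, against 0 in the edgeR fit of 12 libraries.

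Log2 fold changes that turned under quality weights were 0.0588 for Mrgprb5 and -0.46 for Mrgpre in FT against FN, -0.50 for Mrgpra3 and -1.55 for Mrgprb5 in FN against MN, 0.079 for Mrgprb5 in FT against MT, and, for the difference between the sexes, -0.24 for Mrgprd, 0.56 for Mrgpra3, 1.63 for Mrgprb5 and -0.0669 for Mrgpre. Under limma-voom they were -0.71 for Mrgprb5 in FN against MN, -0.10 for Mrgprx1 in FT against MT, 0.22 for Mrgprb5 in the difference between the sexes and 0.0459 for Mrgpre in the averaged effect. Under 10 libraries they were 0.25 for Mrgprb5 and -0.45 for Mrgpre in FT against FN, -0.48 for Mrgpra3 and -1.66 for Mrgprb5 in FN against MN, and, for the difference between the sexes, -0.0915 for Mrgprd, 0.67 for Mrgpra3, 1.18 for Mrgprb5 and -0.0691 for Mrgpre. Under 9 libraries they were 0.19 for Mrgprd and 0.0787 for Mrgprb5 in FT against FN, -0.47 for Mrgpra3 and -1.65 for Mrgprb5 in FN against MN, 0.0394 for Mrgprd, -0.65 for Mrgpra3 and 0.12 for Mrgpre in FT against MT, and 1.00 for Mrgprb5 in the difference between the sexes. The cause of these changes was not tested.

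The replicate block gave -0.0577 for Mrgprb5 in FN against MN and -0.17 for Mrgprx1 in FT against MT. Whether the numbers pair the libraries is not stated. Over 18 same-numbered pairs of libraries r ran from -0.35 to 0.57, with 5 over 0.1. Pairs with different numbers were not compared, so these values cannot decide it.

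Leaving out 1 library at a time gave counts at an unadjusted p under 0.05 of 0 to 2 in FT against FN, 0 to 1 in FN against MN, 0 to 1 in FT against MT and 0 to 2 in the averaged effect. Of all genes tested, 249 to 2262, 259 to 1390, 776 to 3972 and 89 to 1021 passed, in the same order. At that level the call of Mrgprb5 in FT against FN was lost without any one of MN replicates 1, 2 and 3, MT replicate 1, FN replicate 2 and FT replicates 1, 2 and 3. In the averaged effect the call of Mrgpra3 was lost without MN replicate 1, MT replicate 2 or 3, FN replicate 2 or FT replicate 1 or 2, and that of Mrgprb5 without MT replicate 1 or 2, FN replicate 2 or FT replicate 2. Log2 fold changes that turned ranged from -0.48 to 0.17 for Mrgprb4 and -0.77 to 0.0198 for Mrgprx1 in MT against MN. In FT against FN they ranged from -0.70 to 0.25 for Mrgprd, -2.24 to 0.0338 for Mrgprb5, -0.36 to 0.63 for Mrgpre and -0.0626 to 1.06 for Mrgprx1. In FN against MN they ranged from -0.46 to 0.57 for Mrgpra3 and -1.64 to 0.63 for Mrgprb5, and in FT against MT from -0.32 to 0.38 for Mrgpra3 and -0.18 to 0.65 for Mrgprx1. For the difference between the sexes they ranged from -0.37 to 0.58 for Mrgprd, -0.56 to 0.57 for Mrgpra3 and -1.31 to 0.97 for Mrgprb5, and for the averaged effect from -0.37 to 0.12 for Mrgpre and -0.28 to 0.28 for Mrgprx1. The values of Mrgprb5 near 0 in FT against FN, -1.64 in FN against MN and 0.97 in the difference were those without FN replicate 2. With 0 to 74 reads, the scarce members also carry counting error.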

Other observations

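Genes of other neuron classes of the TG gave no adjusted p under 0.05 by edgeR in any of the 6 comparisons with 12 libraries. Of 10 peptidergic nociceptor genes 9 had a higher mean in MT than in MN, with a median log2 fold change of 0.19 against 0.01 over all genes, and Gal (galanin) passed at an unadjusted p under 0.05, as did Trpm8, a cold channel, which was higher in FT than in FN with all libraries and did not pass there without the 3. Without the 3 libraries Gal passed after adjustment in FN against MN, where it was higher. The highest per exon length were Calca (3231 RPKM), Tac1 (1087 RPKM), Gal (579 RPKM) and Calcb (386 RPKM). The summed list was at 5938 to 7928 CPM in the 9 libraries and at 16818, 6128 and 11278 CPM in FN replicate 2, FT replicate 2 and FT replicate 3. Of 12 myelinated neuron genes, led by Nefl (874 RPKM), Nefm (305 RPKM), Nefh (216 RPKM) and Spp1 (46.2 RPKM), 10 had a lower mean in MT and 11 a higher mean in FT, each against its normal group, and only Nefh passed, higher in FT than in FN. Over the 9 libraries 8 of 12 had a higher mean in FT and Nefh did not pass. Among the 9 libraries Nefh lay between 369.9 and 1020 CPM, and FT replicate 2 held 3134 CPM.

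Of the genes for C-low-threshold mechanoreceptors 6 were tested, with a median of 0.01 in MT against MN and -0.13 in FT against FN, and none passed at an unadjusted p under 0.05 in either. With the 9 libraries 7 were tested, and Fam19a4 passed as higher in MT (7.25% of all genes) and in FN (15.2%) than in MN. Gfra2 (22.7 RPKM), Fam19a4 (15.3 RPKM), Th (8.46 RPKM) and Zfp521 (5.30 RPKM) were the highest. Of the ligand precursor and beta-alanine genes 10 were tested with 12 libraries. None passed at an unadjusted p under 0.05 in MT against MN, FT against FN or FN against MN. Pomc and Csad passed as higher in FT than in MT (12.1% of all genes). The highest of the list were Csad (10.9 RPKM), Slc6a6 (8.61 RPKM), the transporter of taurine and beta-alanine, Abat (8.59 RPKM) and Carns1 (5.76 RPKM). Penk, the source of the peptide that acts on Mrgprx1, was at 0.14 to 2.60 CPM in the 9 libraries. Summed markers of fibroblasts were at 312 to 829 CPM in the 9 libraries and at 1258, 680.2 and 1225 in the 3, and those of endothelial cells at 454 to 1409 and at 943, 228 and 1197. Those of myelinating Schwann cells were at 1534 to 2376 and at 1977, 1198 and 3575, those of neutrophils at 12.0 to 163 and at 346, 201 and 103, and those of mast cells at 74.7 to 159.8 and at 42.9, 28.1 and 73.3, most of it Kit, which neurons also express.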
